A study of Mus musculus with 11 samples.

Results

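The adenylate kinases and the creatine kinases are the enzymes that pass high-energy phosphate between nucleotides and creatine. Transcripts of 6 genes were followed here: the adenylate kinases Ak1, Ak3 and Ak4 and the creatine kinases Ckb, Ckm and Ckmt2. They were taken as the rows of a table of normalized read counts whose Ensembl identifiers map to these symbols, 6 of the 22104 genes listed. The table describes cultured primary myoblasts, the dividing precursors of muscle fibres, which came from tibialis anterior muscle of C57BL/6 mice (age about 8 weeks). Donors were wild-type or Bmal1-/-, lacking the transcription factor that partners CLOCK in the circadian clock, and the growth medium held 20% serum and basic fibroblast growth factor at 2.5 ng/ml throughout. Before RNA extraction the cells spent 6 h at 21% oxygen (normoxia) or 1% oxygen (hypoxia). There were 2 libraries of wild-type cells in normoxia, 3 of wild-type cells in hypoxia, 3 of Bmal1-/- cells in normoxia and 3 of Bmal1-/- cells in hypoxia, with replicates numbered only to name them. The deletion was in the donor animals and the labels name no tissue restriction. Nor do they tell if the replicates are different cultures, different mice or repeats of a single RNA, and a p-value here covers library-to-library spread that could be purely technical.

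Adenylate kinases catalyse the reversible exchange of a phosphate between a nucleoside triphosphate and AMP and so set the level of AMP, the signal that switches on the AMP-activated protein kinase. Ak1 is the cytosolic enzyme that is abundant in skeletal muscle, whereas Ak3 and Ak4 lie in the mitochondrial matrix, where Ak3 uses GTP. Creatine kinases store the phosphate of ATP as phosphocreatine and return it to ADP. Ckb encodes the cytosolic brain-type subunit found in many cells, Ckm the cytosolic muscle-type subunit that accumulates as myoblasts differentiate, and Ckmt2 the mitochondrial form of heart and skeletal muscle. Ak4 is a known target of the hypoxia-inducible factors (HIF).

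The libraries held 18707697 to 33613328 assigned reads, and each hypoxia library (at least 23027613) was deeper than each normoxia library (at most 21451760). Arntl, the gene symbol of Bmal1, had 264 to 328 normalized counts in the wild-type libraries and 98.8 to 134 in the Bmal1-/- libraries. Its log2 difference between genotypes was -1.29 in normoxia and -1.31 in hypoxia, and the deleted part of the gene is not named in the labels. All 8 myoblast markers were present, among them Myod1 at 7793 to 9502 and Pax7 at 1123 to 1595 normalized counts. A set of 6 reference hypoxia genes (Slc2a1, Ldha, Pdk1, Vegfa, Bnip3 and Egln3) rose in 6 of 6 cases in each genotype. Of all genes tested 1.70% rose in wild-type and 3.15% in Bmal1-/- cells. The set was chosen with earlier results of these data known, so it is no independent check of the treatment.

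Changes were tested with limma on log2(value + 1), a scale that understates the change of low genes. All 14729 genes with at least 10 normalized counts in at least 2 libraries were fitted. A gene is said to have risen or fallen at a two-sided Benjamini-Hochberg adjusted p under 0.05 over all of them. Of the 6 kinase genes 5 passed this filter, each with at least 100 reads in every library, and Ckmt2 did not.

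The largest response to oxygen among the 6 genes was that of Ak4, whose transcript rose 4.48-fold in wild-type and 4.68-fold in Bmal1-/- cells after 6 h at 1% oxygen. Ak4 (ENSMUSG00000028527) lies on the plus strand of chromosome 4, 101419277 to 101466995 in GRCm38. The stretch upstream of its first RefSeq start site is shown because HIF proteins bind a core of ACGTG or GCGTG in the control regions of their targets. Capitals mark GCGTG on either strand (CACGC is its complement), and no ACGTG was found in these letters. The stretch is chr4:101419039-101419276 on the plus strand of GRCm38.p6, from RefSeq. It stops short of the start site at 101419289 because an annotated exon begins after 101419276.
Ak4 upstream: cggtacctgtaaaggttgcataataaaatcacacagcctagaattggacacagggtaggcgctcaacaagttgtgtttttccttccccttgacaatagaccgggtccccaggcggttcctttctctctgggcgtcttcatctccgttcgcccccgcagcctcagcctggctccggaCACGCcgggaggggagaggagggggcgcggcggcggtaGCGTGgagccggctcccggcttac
The GCGTG letters begin 74 bases before the start site at 101419289 on the reverse strand and 36 bases before it on the given strand. Of 32851 RefSeq windows of 250 bases before a start site, 28.2% hold GCGTG and 16.6% hold ACGTG on either strand, so such matches are frequent, and a match is not evidence of binding. A further Ak4 start site, at 101419703, has CACGTG 214 bases before it, inside an annotated exon. CACGTG is the E-box read by the CLOCK and BMAL1 pair and it contains ACGTG. It was present in 6.02% of windows.

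Wild-type libraries held 610.3 and 493 normalized counts of Ak4 at 21% oxygen and 2636, 2311 and 2442 at 1% oxygen. The Bmal1-/- libraries held 447, 555 and 478 at 21% oxygen and 2465, 2186 and 2265 at 1% oxygen. Each of the 6 hypoxia libraries lay above each of the 5 normoxia libraries, whichever the genotype, with a gap from 610.3 to 2186. The means were 552 ± 82.8 (SD, n = 2) and 2463 ± 164 (SD, n = 3) in wild-type cells and 493 ± 55.6 (SD, n = 3) and 2305 ± 144 (SD, n = 3) in Bmal1-/- cells. The log2 difference between hypoxia and normoxia was 2.16 (SE 0.10, limma adjusted p = 2.44e-08) in wild-type and 2.23 (SE 0.09, adjusted p = 6.8e-09) in Bmal1-/- cells. Ranked by p among the 14729 genes, Ak4 stood 7th in wild-type and 4th in Bmal1-/- cells.

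Whether loss of Bmal1 alters this response was asked of the difference between the responses. It was 0.06 on the log2 scale for Ak4 (SE 0.14, 95% interval -0.23 to 0.36, limma adjusted p = 0.962). The interval corresponds to a response in Bmal1-/- cells of 0.852 to 1.28 times that in wild-type cells. The Ak4 level itself was lower in Bmal1-/- cells by 0.16 at 21% oxygen (95% interval -0.38 to 0.06, adjusted p = 0.381) and by 0.10 at 1% oxygen (-0.29 to 0.10, adjusted p = 0.632), and the libraries of the genotypes overlapped at each oxygen level. Of the 6 reference hypoxia genes 2 were lower in Bmal1-/- cells at 1% oxygen, where 8.95% of all genes were called. These were Slc2a1 (-0.32, limma adjusted p = 0.0392) and Vegfa (-0.20, 0.0483), lost in 6 and 9 of 11 fits without 1 library. Their mean genotype effects were -0.27 (0.012) and -0.21 (0.00519). In the difference between the responses 0 of the 6 were called. The responses of the genotypes rest on separate libraries, whereas comparisons between genotypes and between oxygen levels reuse the same ones.

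**Figure D1:**
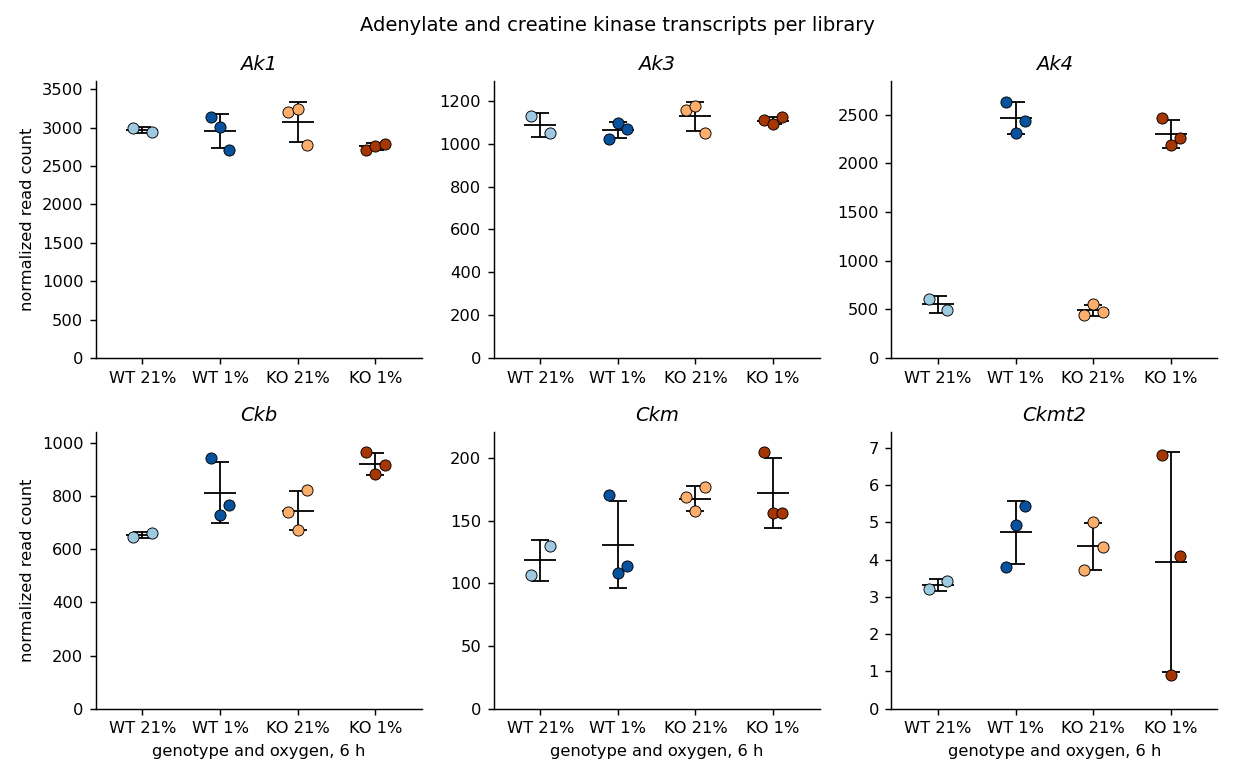
Normalized read counts of the 6 kinase genes in each library (points, 1 per library), with group mean (wide bar) and SD (whiskers), by genotype (WT, wild-type; KO, Bmal1-/-) and oxygen after 6 h. Ak4 is between 2186 and 2636 in all 6 libraries at 1% oxygen and between 447 and 610.3 in all 5 at 21%, whereas Ckmt2 stays below 7 normalized counts throughout.

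Ak1 was the most abundant of the 6 transcripts in each group and did not pass the test in any comparison. Ak1 (ENSMUSG00000026817) is on the plus strand of chromosome 2, 32621758 to 32635058. At 21% oxygen it had 3001 and 2947 normalized counts in wild-type and 3207, 3248 and 2773 in Bmal1-/- cells. At 1% oxygen it had 3142, 3003 and 2714 in wild-type and 2711, 2765 and 2791 in Bmal1-/- cells. All groups overlapped their neighbours in the order of their means. The log2 difference between hypoxia and normoxia was -0.01 (SE 0.07, 95% interval -0.17 to 0.14) in wild-type and -0.16 (SE 0.06, interval -0.29 to -0.02, limma adjusted p = 0.219) in Bmal1-/- cells. Without Bmal1-/- normoxia replicate 3, the lowest of its group, the latter was -0.23 with an adjusted p of 0.0403.

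Ak3 differed little between groups. Ak3 (ENSMUSG00000024782), on the minus strand of chromosome 19, 29020833 to 29047961, had 1128 and 1048 normalized counts in wild-type and 1159, 1174 and 1047 in Bmal1-/- cells at 21% oxygen. At 1% oxygen it had 1024, 1099 and 1066 in wild-type and 1109, 1091 and 1122 in Bmal1-/- cells. The libraries of all 4 groups overlapped, and the fitted differences ran from -0.03 to 0.06 on the log2 scale over the 7 comparisons. The 95% intervals reached -0.17 to 0.10 for hypoxia in wild-type and -0.15 to 0.10 for hypoxia in Bmal1-/- cells. The last exons of Ak3 share 431 bases with Cdc37l1 on the opposite strand, which had 494 to 638 normalized counts. The libraries were stranded, but whether the counting used the strand is not given in the sources used here, so reads of this stretch cannot be assigned to either gene with certainty.

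The creatine kinases moved by smaller amounts. Ckb, the brain-type subunit, rose 1.24-fold with hypoxia averaged over both genotypes. Ckb (ENSMUSG00000001270) lies on the minus strand of chromosome 12, 111669361 to 111672338. Its upstream stretch is shown as a contrast to that of Ak4, since no GCGTG was found on either strand in the 250 bases before the start site. There was no ACGTG and therefore no CACGTG either. Capitals mark TATAAA, the TATA box that positions the transcription machinery, 28 bases before the start site and found in 12.4% of windows on either strand. The stretch is chr12:111672339-111672588 on the minus strand of GRCm38.p6, from RefSeq.
Ckb upstream: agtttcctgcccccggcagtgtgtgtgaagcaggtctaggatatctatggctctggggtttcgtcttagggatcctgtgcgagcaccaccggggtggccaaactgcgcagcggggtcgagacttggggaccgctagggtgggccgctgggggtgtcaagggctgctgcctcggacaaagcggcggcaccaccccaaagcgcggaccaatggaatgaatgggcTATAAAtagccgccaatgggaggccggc
The absence of these letters from this window says nothing about sites elsewhere. Ak1, which was not called, has GCGTG 189 bases before its start site at 32628390 and ACGTG 33 bases before that at 32629500. Neither was found in the 250 bases before its start sites at 32621758 and 32625437. Whether these letters bear on the response to oxygen was not tested.

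Wild-type libraries held 645 and 659.9 normalized counts of Ckb at 21% oxygen and 943, 729 and 766 at 1% oxygen. The Bmal1-/- libraries held 739.7, 673 and 821 at 21% oxygen and 964, 881 and 916 at 1% oxygen. Within each genotype each hypoxia library lay above each normoxia library. Across genotypes the ranges overlapped, since 2 wild-type hypoxia libraries lay below the highest Bmal1-/- normoxia library. The log2 difference was 0.31 in wild-type cells (SE 0.10, limma adjusted p = 0.188) and 0.31 in Bmal1-/- cells (SE 0.09, adjusted p = 0.0873), neither past the threshold. The mean of the 2 hypoxia effects was 0.31 (SE 0.07, 95% interval 0.16 to 0.46, adjusted p = 0.0156). Leaving out either wild-type normoxia library ended the call (adjusted p = 0.0601 without replicate 1 and 0.0501 without replicate 2), with the lone library left assumed to vary like the other groups. The rise in Bmal1-/- cells alone was called without wild-type hypoxia replicate 1 (0.031), without Bmal1-/- normoxia replicate 3 (0.0456) and by DESeq2 on the recovered reads (0.0486). The difference of the responses was 0.00 (SE 0.14, 95% interval -0.30 to 0.30).

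Ckb was 0.19 higher on the log2 scale in Bmal1-/- than in wild-type cells at each oxygen level, with limma adjusted p-values of 0.305 in normoxia and 0.271 in hypoxia. The normoxia libraries of the genotypes did not overlap and the hypoxia libraries did. The mean genotype effect of Ckb was 0.19 (SE 0.07, adjusted p = 0.0841). Without wild-type hypoxia replicate 1, the highest of its group, it was 0.24 (adjusted p = 0.0114) and the difference in hypoxia 0.30 (0.0426). Without Bmal1-/- normoxia replicate 2 the mean effect was 0.22 (0.0482).

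**Figure D2:**
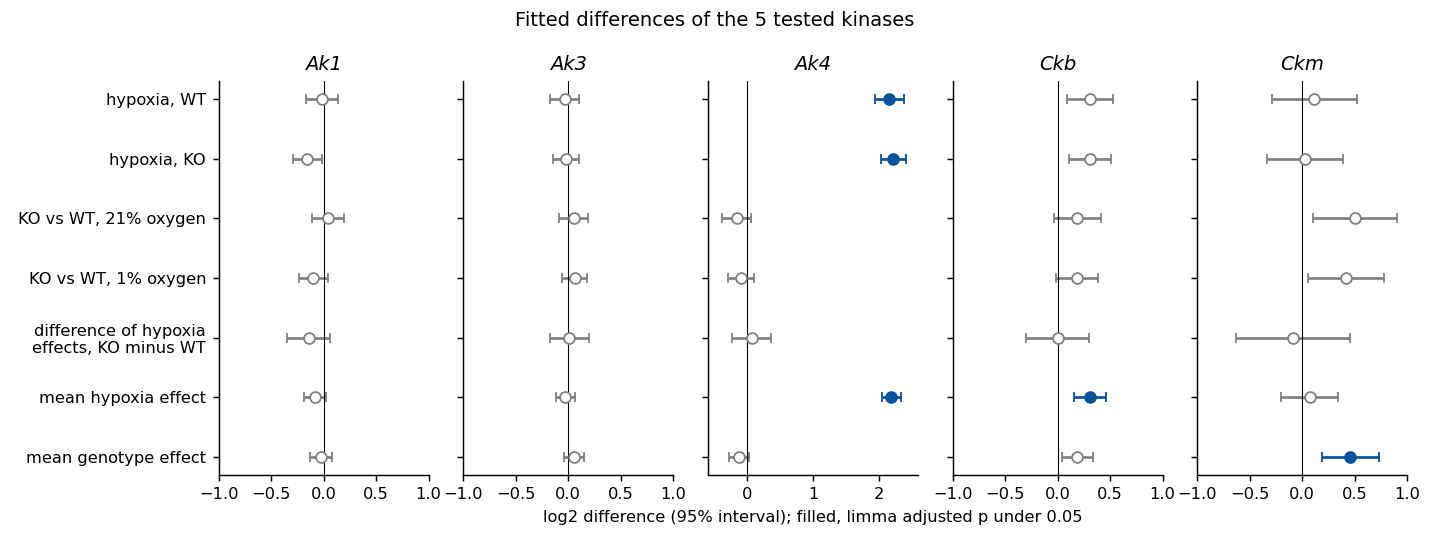
Fitted log2 differences (points) with 95% intervals (whiskers) of the 5 tested kinases in 7 comparisons, filled where the limma adjusted p over all genes is under 0.05. Ak4 has an axis of its own and is near 2.2 in the hypoxia comparisons, Ckb is filled for the mean hypoxia effect at 0.31 and Ckm for the mean genotype effect at 0.46.

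Ckm, the muscle-type subunit, differed with genotype and not detectably with oxygen: it was 1.37-fold higher in Bmal1-/- cells over both oxygen levels. Ckm (ENSMUSG00000030399) is on the plus strand of chromosome 7, 19404776 to 19422841. The stretch before its RefSeq start site at 19411094, which lies within the annotated span of the gene but outside its exons, is shown for its E-box. Capitals mark CAGCTG, a form of the E-box bound by the MyoD family of muscle transcription factors, and CACGC, the complement of GCGTG. The stretch is chr7:19410844-19411024 on the plus strand of GRCm38.p6, from RefSeq. It stops short of the start site because an annotated exon begins after 19411024. Distances are counted from the start site and not from the last letter shown.
Ckm upstream: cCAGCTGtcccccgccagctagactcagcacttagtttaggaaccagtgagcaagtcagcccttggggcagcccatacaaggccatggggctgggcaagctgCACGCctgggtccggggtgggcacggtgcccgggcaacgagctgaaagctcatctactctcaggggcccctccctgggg
CAGCTG begins 249 bases before the start site and was present in 13% of windows, and CACGC begins 148 bases before it. CACGTG was not found in the 250 bases before this start. CAGCTG was not particular to Ckm, since it begins 177 and 227 bases before the Ak1 start sites at 32621758 and 32625437 and 107 bases before that of Ckmt2.

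In normoxia Ckm had 107 and 130.1 normalized counts in wild-type and 169, 157 and 177 in Bmal1-/- cells. In hypoxia it was 171, 108 and 113 in wild-type and 205, 156 and 156 in Bmal1-/- cells. The genotypes did not overlap in normoxia. In hypoxia wild-type replicate 1 lay among the Bmal1-/- libraries and the other wild-type libraries below them. The log2 difference between genotypes was 0.50 in normoxia (SE 0.19, limma adjusted p = 0.119) and 0.41 in hypoxia (SE 0.17, adjusted p = 0.17), and the mean genotype effect was 0.46 (SE 0.13, 95% interval 0.19 to 0.73, adjusted p = 0.0219). Only the mean passed, and it no longer did without wild-type normoxia replicate 1 (adjusted p = 0.101), wild-type hypoxia replicate 2 (0.0515) or 3 (0.0524) or Bmal1-/- hypoxia replicate 1 (0.0523). Without wild-type hypoxia replicate 1 the differences in normoxia (adjusted p = 0.0486) and in hypoxia (0.62, adjusted p = 0.0202) were also called.

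The hypoxia effect on Ckm was 0.12 (SE 0.19, 95% interval -0.29 to 0.52) in wild-type and 0.03 (SE 0.17, interval -0.33 to 0.39) in Bmal1-/- cells. These intervals are the widest among the 5 tested kinases, and Ckm also had the fewest reads of them, 100 to 211 per library. An antisense transcript that overlaps Ckm, A930016O22Rik, had at most 1.94 normalized counts.

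Markers of muscle differentiation moved with genotype beside Ckm. Of the 13 listed, 9 rose in Bmal1-/- cells in normoxia, 10 in hypoxia and 11 in the mean genotype effect, with 0 falling and a median log2 difference of 0.52, 0.53 and 0.52 against 0.00, 0.00 and 0.01 over all genes. Of all genes limma called 9.09%, 8.95% and 17.2% in either direction in these comparisons. Their summed normalized count was 44095 to 54748 in normoxia and 38833 to 47543 in hypoxia in wild-type cells. In Bmal1-/- cells it was 67716 to 78422 in normoxia and 65922 to 67779.7 in hypoxia, above all wild-type libraries. The embryonic myosin Myh3 was 0.64 and 0.71 higher in Bmal1-/- cells in normoxia and hypoxia and titin Ttn 0.73 and 0.88 higher, on the log2 scale. The normoxia count depended on 1 library, with 2 of 13 called without wild-type normoxia replicate 1, whereas 8 to 11 were called in hypoxia and 11 in the mean effect when any 1 library was left out. With hypoxia 0 of the 13 rose and 0 fell in either genotype by limma, edgeR or DESeq2, and 2 in each had an unadjusted p under 0.05. Limma called 2.17% of all genes in wild-type and 4.09% in Bmal1-/- cells, so a count of 0 in 13 does not set these markers apart. In the mean hypoxia effect 2 of 13 fell by limma, Myog (-0.25, adjusted p = 0.0316) and Mymk (-0.27, 0.0484), lost in 7 and 9 of 11 fits without 1 library. There 5 had an unadjusted p under 0.05, and the median was -0.15 against 0.00 over all genes, of which 7.45% were called. Of 8 myoblast markers 1 rose in Bmal1-/- cells in normoxia, 3 in hypoxia and 4 in the mean genotype effect, with 0 falling. Their median log2 difference was 0.04, 0.12 and 0.09. Myf5 was 0.59 higher in normoxia (limma adjusted p = 0.000306) and 0.51 higher in hypoxia (0.000318). Itga7 and Cdh2 were 0.23 and 0.18 higher in hypoxia. In bulk RNA more cells of a type and more RNA per cell cannot be told apart.

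Markers of other cells also differed between genotypes. Of 8 fibroblast markers 7 fell in Bmal1-/- cells in normoxia, 7 in hypoxia and 8 in the mean. Limma called 9.09%, 8.95% and 17.2% of all genes in either direction in these comparisons. The log2 difference of Pdgfra was -1.38 in normoxia and -1.29 in hypoxia. That of Lum was -2.06 in hypoxia (limma adjusted p = 0.0202, lost without any 1 of the 3 wild-type hypoxia libraries, up to 0.0642) and -1.60 in normoxia, where it was the marker not called (0.102). Their summed normalized count was 17595 to 19632 in normoxia and 19555 to 19796 in hypoxia in wild-type cells, and 13179 to 13843 and 15122 to 15870.5 in Bmal1-/- cells. With hypoxia Col1a1, Col3a1 and Cd34 rose in Bmal1-/- cells, by 0.57, 0.15 and 0.50 on the log2 scale, but only Cd34 among them remained called without Bmal1-/- normoxia replicate 2 or Bmal1-/- hypoxia replicate 1 or 2. Of 7 tested smooth muscle and pericyte markers Acta2, Cnn1, Tagln, Pdgfrb and Cspg4 fell with genotype at each oxygen level, Pdgfrb by 1.40 in normoxia on the log2 scale; these markers are named after their values were seen. The other tested members were not called: the log2 difference of Rgs5 was 0.24 in normoxia (adjusted p = 0.183) and 0.12 in hypoxia (0.535), and that of Myh11 0.70 and -0.64 (0.472 and 0.503). With hypoxia Acta2 fell in wild-type (-0.19, limma adjusted p = 0.0099, 0.132 without wild-type normoxia replicate 1 and 0.105 with only the groups compared) and in Bmal1-/- cells (-0.18, 0.0057). Tagln fell with hypoxia in Bmal1-/- cells (-0.28, 0.028), a call lost in 4 of 11 fits without 1 library. The 5 endothelial markers summed to 20.4 to 61.4 normalized counts per library, with Tek up to 28.8, Pecam1 up to 25.0, Kdr up to 14.8, Cdh5 up to 9.08 and Emcn up to 2.17. Of the leukocyte markers in the table Cd68 reached 32.6 and Itgam 4.28. Tek, Pecam1, Kdr and Cd68 were tested and not called in any comparison by limma, edgeR or DESeq2. The part of these cells in the differences of Ckm and Ckb was not tested.

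**Figure D3:**
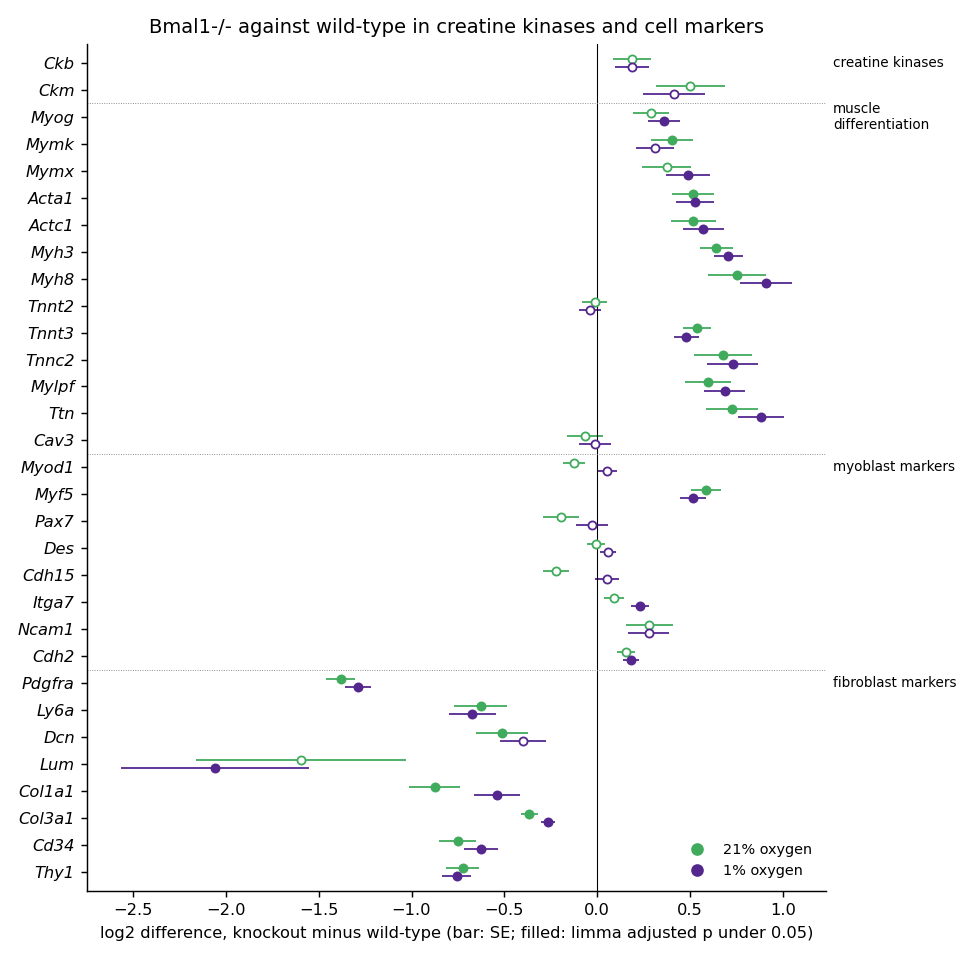
Log2 difference of Bmal1-/- minus wild-type (points) with SE (bars) at 21% and 1% oxygen for Ckb, Ckm and the marker genes, filled where the limma adjusted p is under 0.05. Ckm lies at 0.50 and 0.41, beside differentiation markers with medians of 0.52 and 0.53, while the fibroblast markers lie below 0.

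Ckmt2, the mitochondrial form of muscle, was at the limit of detection. Ckmt2 (ENSMUSG00000021622) lies on the minus strand of chromosome 13, 91853387 to 91876885. It had 1 to 7 reads per library, so its values cover little more than counting error. Its normalized count was 3.21 and 3.42 at 21% oxygen and 3.81, 4.92 and 5.44 at 1% oxygen in wild-type cells, and 3.72, 4.997 and 4.34 at 21% and 6.79, 0.908 and 4.10 at 1% oxygen in Bmal1-/- cells. The wild-type normoxia libraries, with 3 reads each, lay below those of wild-type hypoxia and of Bmal1-/- normoxia, and the range of Bmal1-/- hypoxia covered all others. When every gene of the table was fitted the limma adjusted p of Ckmt2 was 0.776 to 0.979 over the 7 comparisons. A change in this gene was not detectable at this depth. Ckmt1, the ubiquitous mitochondrial form, had 0 to 3.72 normalized counts.

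Counted over the family, 1 of the 5 tested members rose and 0 fell with hypoxia in wild-type cells (Ak4), where 1.70% of all genes rose and 2.17% were called in either direction. In Bmal1-/- cells 1 of 5 rose (Ak4), against 3.15% of all genes rising and 4.09% called. The mean hypoxia effect called 2 of 5 (Ak4 and Ckb, both upward), against 4.89% and 7.45%. Between genotypes 0 of 5 were called in normoxia (9.09% of all genes called) and 0 in hypoxia (8.95%) by limma, edgeR or DESeq2, with Ckm at an unadjusted p under 0.05 in each. The mean genotype effect called 1 of 5 (Ckm, upward), against 7.39% rising and 17.2% called. In the difference between the responses 0 of 5 were called by any of these tools and 0 had an unadjusted p under 0.05, and 0.00679% of all genes, a single gene (Gm23925, named after its values were seen), was called by limma. The median log2 difference of the 5 members was 0.12 for hypoxia in wild-type and 0.03 in Bmal1-/- cells, against 0.00 and -0.01 over all tested genes. The call of Ckm thus came from the comparison in which calls were most frequent.

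Compared per kilobase of exon, Ak1 was first in all 4 groups and Ckmt2 last. In wild-type normoxia Ak1 had 1147 ± 14.9 (SD, n = 2) normalized counts per kb, Ak3 349 ± 18.01, Ckb 225 ± 3.73, Ak4 119 ± 17.8, Ckm 40.7 ± 5.60 and Ckmt2 2.23 ± 0.101. In wild-type hypoxia Ak4 stood second at 530.1 ± 35.2 (SD, n = 3), above Ak3 at 341 ± 12.1 and Ckb at 281 ± 39.5. The order was the same in Bmal1-/- cells at each oxygen level, and neighbours in the order did not overlap in any of the 4 groups. Ak4 thus passed Ckb and Ak3 in both genotypes.

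Ak4 supplied 7.34% ± 0.873 (SD, n = 2) of the summed Ak1, Ak3 and Ak4 value per kb in wild-type normoxia and 26.4% ± 1.42 (SD, n = 3) in wild-type hypoxia. In Bmal1-/- cells its share was 6.43% ± 0.682 and 25.9% ± 1.36 (SD, n = 3 each). The share of Ak1 was 71.1% in normoxia and 56.6% in hypoxia in wild-type cells and 71.7% and 55.5% in Bmal1-/- cells, though its own level did not pass the test. The sum of the 3 adenylate kinases went from 1614 ± 50.8 to 2009.8 ± 96.6 normalized counts per kb in wild-type cells and from 1654 ± 128 to 1914 ± 24.0 in Bmal1-/- cells. These shares are descriptions with no test. They depend on the annotated exon length, since without division by length Ak4 held 11.9% and 38.01% in wild-type normoxia and hypoxia.

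Among the creatine kinases Ckb supplied most of the transcript in each library. Its share of the summed Ckb, Ckm and Ckmt2 value per kb was 84.0% in wild-type normoxia, 85.5% in wild-type hypoxia, 80.9% in Bmal1-/- normoxia and 83.8% in Bmal1-/- hypoxia. Ckm held 15.2%, 13.5%, 18.2% and 15.5% in the same order. The shares of Ckm in single libraries, 14.1 to 16.3% in wild-type normoxia and 17.5 to 18.6% in Bmal1-/- normoxia, did not overlap, whereas those in hypoxia did.

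**Figure D4:**
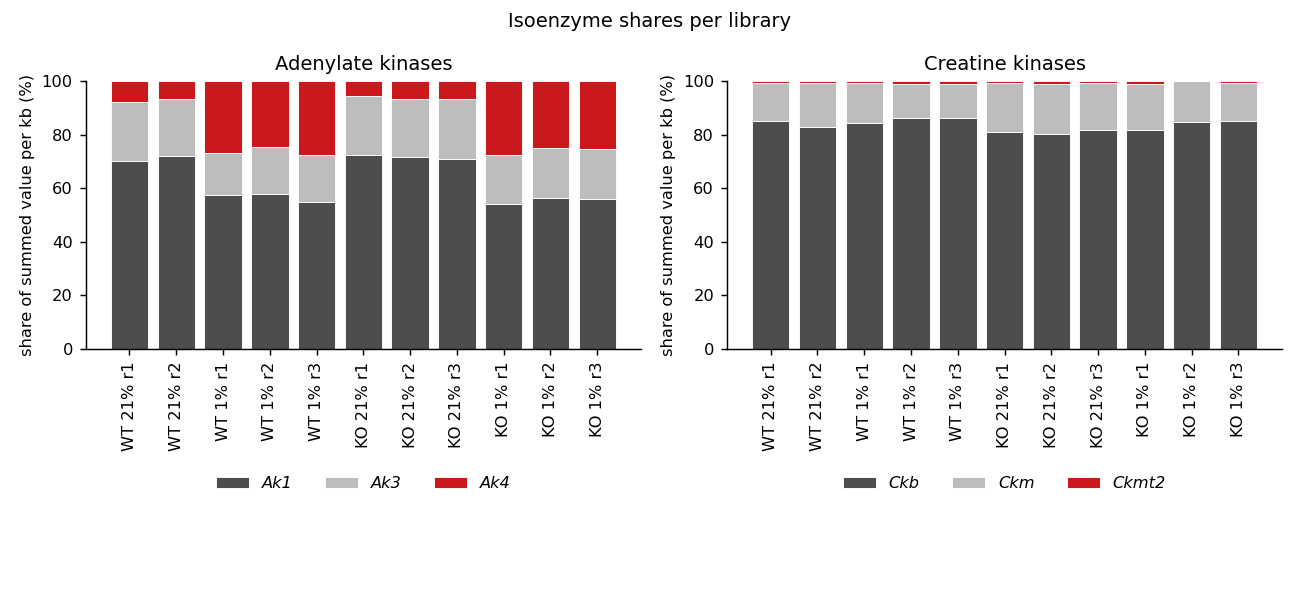
Share of each isoenzyme in the summed value per kb of its family, in percent, for each of the 11 libraries (r, replicate). The Ak4 section is 5.64 to 7.96% at 21% oxygen and 24.8 to 27.5% at 1% oxygen, whereas Ckb holds 80.2 to 86.2% of the creatine kinase total in all libraries.

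Among the other listed genes of high-energy phosphate metabolism, limma called Vdac1 with hypoxia in wild-type and Slc6a8 in Bmal1-/- cells. It called 2.17% and 4.09% of all genes in these comparisons, so such sparse calls do not set the listed genes apart. Ak5 and Ak6, the other adenylate kinases described here, were not called in any comparison by limma or edgeR. Ak5 had 188 to 253 normalized counts and Ak6 2226 to 2711. With hypoxia the log2 difference of Ak5 was 0.03 (SE 0.13) in wild-type and -0.04 (SE 0.11) in Bmal1-/- cells. That of Ak6 was -0.10 (SE 0.05) in wild-type and -0.14 (SE 0.05, limma adjusted p = 0.114) in Bmal1-/- cells, and its mean hypoxia effect was -0.12 (adjusted p = 0.0512), which DESeq2 called (adjusted p = 0.0277). Ak7, Ak8 and Ak9 had at most 2.17.

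Of 3 genes of creatine synthesis and uptake, 1 was called between genotypes at each oxygen level. Limma called 9.09% of all genes in normoxia and 8.95% in hypoxia. It called 4.09% with hypoxia in Bmal1-/- cells and 7.45% in the mean hypoxia effect. Gatm, which makes the creatine precursor guanidinoacetate, had 696 ± 1.27 (SD, n = 2) normalized counts in wild-type and 868 ± 8.33 (SD, n = 3) in Bmal1-/- normoxia, and 671 ± 52.8 and 939.8 ± 51.5 (SD, n = 3 each) in hypoxia. It rose by 0.32 on the log2 scale in normoxia (limma adjusted p = 0.0124) and by 0.49 in hypoxia (adjusted p = 0.000195). The normoxia call was lost without either wild-type normoxia library (0.0711 and 0.0826). Slc6a8, the creatine transporter, fell by 0.29 with hypoxia in Bmal1-/- cells (SE 0.06, adjusted p = 0.0195) and by 0.21 in the mean hypoxia effect (SE 0.05, 0.0157). The first call was lost without Bmal1-/- normoxia replicate 3 (0.0617) or Bmal1-/- hypoxia replicate 1 (0.0823) or 2 (0.0793), and the second without either wild-type normoxia library (0.0544 and 0.0558). Gamt, which completes creatine synthesis, was not called (log2 difference 0.44 with hypoxia in Bmal1-/- cells, adjusted p = 0.101).

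Downstream of AMP, 10 genes around the AMP-activated protein kinase were listed: its subunits, its upstream kinases and Cab39. With hypoxia 0 of these 10 were called in either genotype by limma, edgeR or DESeq2. Over all genes limma called 2.17% and 4.09%, so a count of 0 in 10 does not set these genes apart. It called 17.2% in the mean genotype effect and 7.45% in the mean hypoxia effect, which bear on the calls named below. In wild-type cells 0 and in Bmal1-/- cells 1 had an unadjusted p under 0.05, the regulatory subunit Prkag3 (log2 difference -0.67, SE 0.29, adjusted p = 0.242). Another regulatory subunit, Prkag2, fell in the mean genotype effect (-0.29, SE 0.08, limma adjusted p = 0.028), a call lost in 5 of the 11 fits without 1 library (adjusted p up to 0.128). Ampd3, an AMP deaminase, rose in the mean hypoxia effect (0.19, SE 0.05, adjusted p = 0.0366), lost in 9 of 11 such fits (up to 0.141).

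Of 10 other nucleotide kinases, Nme1, a nucleoside diphosphate kinase, was higher in Bmal1-/- cells in hypoxia (0.30, SE 0.07, limma adjusted p = 0.0218, lost in 4 of 11 fits without 1 library) and in the mean genotype effect (0.20, adjusted p = 0.025, lost in 3 of 11). Nme7 rose in the mean hypoxia effect (0.21, SE 0.05, adjusted p = 0.0319), lost in 9 of 11 fits and under DESeq2 (0.0782). Vdac1, the outer membrane channel through which nucleotides leave mitochondria, rose with hypoxia in wild-type cells (0.23, SE 0.05, adjusted p = 0.0418, lost in 7 of 11 fits, with no filter (0.0585) and with only the groups compared (0.0738)). Its mean hypoxia effect was 0.18 (adjusted p = 0.00733) and held in 11 of 11. Cmpk2, a mitochondrial nucleoside monophosphate kinase with low counts, was not called: its log2 difference with hypoxia was -0.76 (SE 0.38, limma adjusted p = 0.402) in wild-type and -0.54 (SE 0.34, adjusted p = 0.445) in Bmal1-/- cells. Of all genes limma called 8.95% between genotypes in hypoxia, 17.2% in the mean genotype effect and 7.45% in the mean hypoxia effect. With hypoxia in wild-type cells it called 2.17%. A count of 1 in 10 nucleotide kinases thus does not set them apart.

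**Figure D5:**
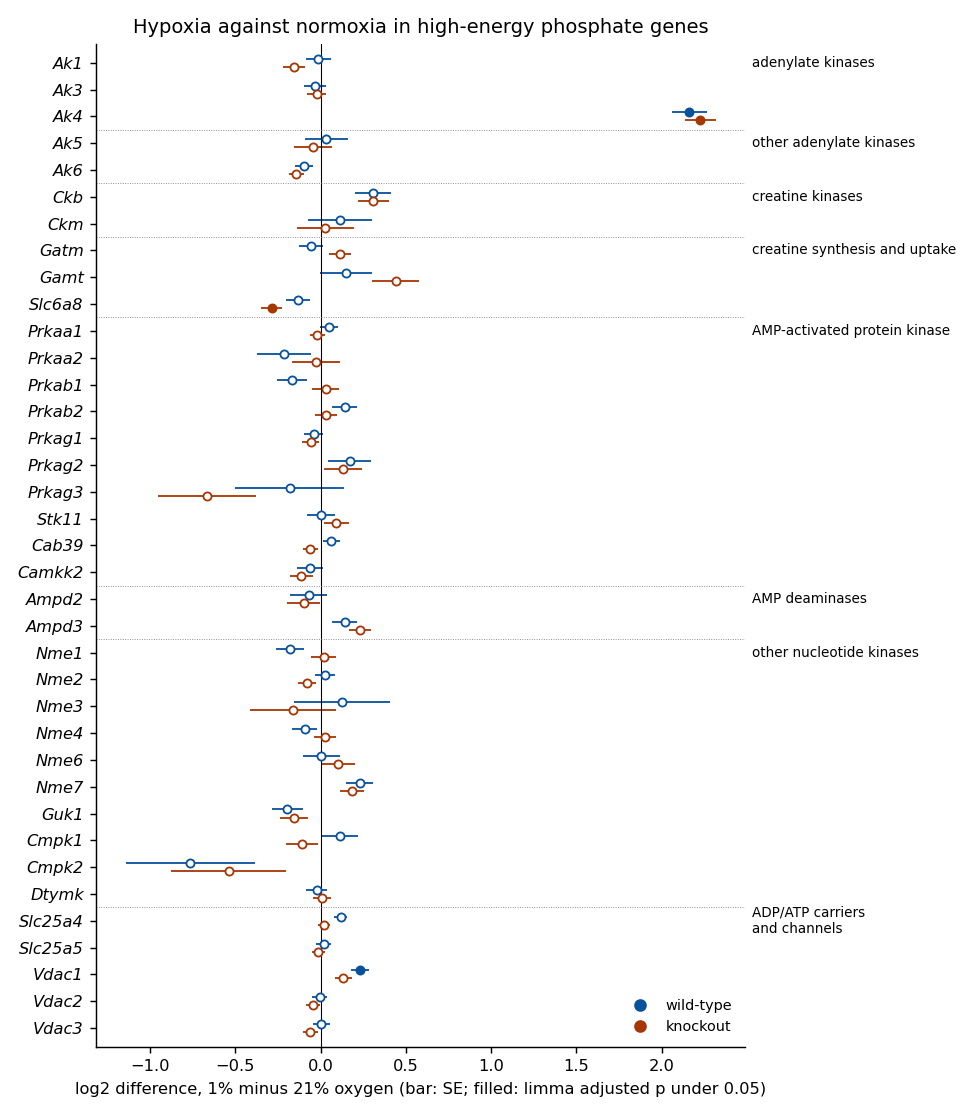
Log2 difference of 1% minus 21% oxygen (points) with SE (bars) in each genotype for the kinases and the other listed genes of high-energy phosphate metabolism, filled where the limma adjusted p is under 0.05. Ak4 lies at 2.16 and 2.23, and the other filled points are Slc6a8 at -0.29 in Bmal1-/- and Vdac1 at 0.23 in wild-type cells.

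Over the 11 libraries the transcripts whose log2 values most resembled those of Ak4 were Pgam1 (Pearson r = 0.995), Egln3 (r = 0.994) and Slc16a3 (r = 0.991). Pgam1 encodes the glycolytic phosphoglycerate mutase, Egln3 an oxygen-sensing prolyl hydroxylase of HIF and Slc16a3 a lactate exporter. Egln3 went from 851 to 4707 normalized counts in wild-type and from 818 to 4266 in Bmal1-/- cells. Those most like Ckb were Kremen1 (r = 0.950), a receptor of Wnt antagonists, Lmnb2 (r = 0.939), a nuclear lamin, and Dusp10 (r = 0.938), a MAP kinase phosphatase. Those most like Ckm were Afap1l2 (r = 0.963), with group means of 2.25 to 11.2, Afap1l1 (r = 0.962) and Tnni2 (r = 0.957), the inhibitory troponin of fast muscle. Tnni2 had 275 and 290 normalized counts in wild-type normoxia and hypoxia and 395 and 372 in Bmal1-/- cells. For Ak1 they were Nsmce4a (r = 0.909), Fbxw2 (r = 0.906) and Tor1b (r = 0.894), and for Ak3 Pcgf6 (r = 0.938), Phf11c (r = 0.916) and Tubb4b (r = 0.915). These correlations describe the 11 libraries, which share group and depth. The genes were the highest among those of the 14729 left after predicted, clone and pseudogene symbols were taken out. Among the members themselves r was 0.69 for Ak4 with Ckb, 0.67 for Ckb with Ckm and 0.00 for Ak4 with Ckm.

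Near-identical copies could take reads from 2 of the members. A processed pseudogene of Ak4, Ak3l2-ps, is 99.6% identical to it over 672 bases. It had 3.89 ± 0.958 (SD, n = 2) normalized counts in wild-type normoxia and 23.3 ± 5.35 (SD, n = 3) in wild-type hypoxia, with 4.81 ± 4.54 and 20.3 ± 1.92 (SD, n = 3 each) in Bmal1-/- cells. Its log2 rise was 2.30 in wild-type (SE 0.54, limma adjusted p = 0.0418) and 2.18 in Bmal1-/- cells (SE 0.48, adjusted p = 0.0203). Reads of Ak4 and of this copy cannot be told apart with certainty, and its counts are small beside those of Ak4. Gm12892, 96.8% identical to Ckb over 1149 bases, had at most 6.15.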

How the data were processed

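Total RNA of 11 libraries was sequenced after stranded library construction from 1 µg of RNA, per the labels' protocols. The submitters' processing notes list STAR, HTSeq, RSEM, DESeq2, Picard and bcl2fastq with build mm10 and no versions, and which tool made the table is not given in the sources used here. The values deposited by the authors are a normalized signal for 22104 Ensembl identifiers: reads scaled by a size factor, 1 for each library. Multiplied back, 100% of values were whole reads within 0.01 read. A symbol was found for 21805 identifiers, 0 rows named no gene and 0 columns were unused.

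Positions, exon lengths and overlaps came from GENCODE M21 on GRCm38, upstream sequences from RefSeq GRCm38.p6. For Ak3 no upstream sequence is shown. Copies were sought with BLAST 2.17.0 (at least 90% identity over 200 bases).

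All libraries entered 1 limma 3.58.1 fit in R 4.3.3 with 4 group means and a variance trend, on log2(value + 1) of genes with at least 10 in at least 2 libraries. It had 7 residual and 6.35 prior degrees of freedom and gave 7 contrasts, tested two-sided: hypoxia in each genotype, genotype at each oxygen level, the difference of the hypoxia effects and the mean of each effect. The fit was tested on simulated data. Alternatives were pseudocounts of 0.5 and 5, no filter, TMM scaling, edgeR 4.0.16 and DESeq2 1.42.0 on the recovered reads, fits of only the groups compared, and leaving out each of the 11 libraries.

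The members, the lists and the markers were chosen with earlier results of these data known. All 6 members were named in every comparison. From each list of nucleotide and phosphocreatine genes up to 4 called members per comparison were named, smallest adjusted p first. For members with a mean of at least 50 the 3 tested genes with the highest Pearson r were named, leaving out predicted, clone and pseudogene symbols. Markers of differentiation, of other cells, and Arntl were named beside results they touch. A listed gene is not reported here. Intervals are at 95%. The median SE was 0.10 to 0.11 on the log2 scale in the comparisons of single groups and 0.15 for the difference of the hypoxia effects. Depth was 18707697 to 33613328 reads, and its part in the SE was not tested.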

Additional observations from a re-analysis of the deposited data

How the results depend on the processing

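Over the alternatives, for the 5 tested members in each comparison and for other listed genes only where limma had called them (so that a gain such as that of Ak6 is not counted), 2605 log2 changes kept their direction and side of the threshold, 172 lost the call, 9 gained it and 28 changed sign. Counts and shares stayed within their limits in 224 cases and moved in 46. Ak4 was called in each hypoxia comparison under each alternative, with log2 changes of 2.01 to 2.32 when 1 library was left out. DESeq2 called 2 members with hypoxia in Bmal1-/- cells, and limma on only the groups compared called 849 genes between genotypes in normoxia (1339 with all libraries). The difference of the hypoxia effects gave 1 gene, 0 with a pseudocount of 5 or with edgeR and 5 with DESeq2. For Ckb that difference was 0.00 and turned to -0.0021 with TMM scaling, -0.00642 with edgeR and -0.00849 with DESeq2; TMM scaling moved the median of all genes by at most 0.011. Shares without division by length in wild-type normoxia, wild-type hypoxia, Bmal1-/- normoxia and Bmal1-/- hypoxia were 64.5%, 45.6%, 65.5% and 44.7% for Ak1 and 11.9%, 38.01%, 10.5% and 37.4% for Ak4. For Ak3 they were 23.6%, 24.0% and 17.95% in wild-type normoxia, Bmal1-/- normoxia and Bmal1-/- hypoxia, and for Ckmt2 0.429%, 0.514% and 0.48% in wild-type normoxia, wild-type hypoxia and Bmal1-/- normoxia.

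Leaving out 1 library gave 161 to 319 genes called with hypoxia in wild-type cells (the lowest without wild-type normoxia replicate 2), 371 to 624 in Bmal1-/- cells (without Bmal1-/- normoxia replicate 1), 690 to 1066 in the mean hypoxia effect, 668 to 1358 between genotypes in normoxia and 1 to 3 in the difference of the hypoxia effects. Members called were 1 to 3 with hypoxia in Bmal1-/- cells, 1 to 2 in the mean hypoxia effect, 0 to 1 between genotypes in normoxia, 0 to 2 in hypoxia and 0 to 2 in the mean genotype effect. The log2 change with hypoxia in wild-type cells was -0.0587 to 0.0468 for Ak1, -0.0857 to 0.0197 for Ak3 and -0.0903 to 0.255 for Ckm, and in Bmal1-/- cells -0.0756 to 0.00682 for Ak3 and -0.102 to 0.0935 for Ckm. The mean hypoxia effect was -0.0313 to 0.141 for Ckm. The genotype difference of Ak3 in normoxia was -0.0025 to 0.103, and the mean genotype effect of Ak1 -0.0559 to 0.0103. The difference of the hypoxia effects was -0.0434 to 0.0619 for Ak3, -0.0887 to 0.218 for Ak4, -0.0716 to 0.114 for Ckb and -0.228 to 0.118 for Ckm. Fits without a library have fewer samples, and beyond that the cause of these changes was not tested. Ckmt2 had 1 to 7 reads per library, at which depth a change was not detectable. The SD of Ckm was 26.4% of its mean in wild-type hypoxia and 16.3% in Bmal1-/- hypoxia. No paired analysis was possible because the labels give no replicate numbers that link groups.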
